A study of Saccharomyces cerevisiae with 134 samples.

Results

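The ribosome biogenesis factor genes of budding yeast described here were chosen by name: a standard symbol of UTP, NOP, RRP, NOC, NSA or ENP followed by a number, plus NSR1. The rule found 61 of the 6692 genes in the RNA tables. Of these, 52 also had values among the 5355 genes of the H3K36me3 tables. NOP4, NOP13, NOP56, NOP58, NSR1, RRP9, RRP14, RRP15 and RRP17 were not analysed for the mark.

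Ribosome assembly starts in the nucleolus, where RNA polymerase I makes a long ribosomal RNA precursor that is folded, cut and modified by these proteins before the subunits leave the nucleus. Small nucleolar ribonucleoprotein (snoRNP) cores guide modification and folding, the UTP complexes and their partners build the small subunit processome, the NOC, NSA and many NOP proteins assemble the large subunit, and the RNA exosome trims the ends. The genes form a regulon that follows growth and nutrient signals, and their promoters are known for the PAC and RRPE elements. H3K36me3 is the mark that the methyltransferase Set2 leaves on transcribed gene bodies, and Rph1 is a demethylase that can remove it.

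The study used BY4741 yeast. In LANS-Set2 a light-activated nuclear shuttle is fused to Set2, so that blue light brings the enzyme into the nucleus and darkness releases it. All LANS-Set2 cells compared here lacked the native SET2 gene and grew in SC−LEU medium. In the dark-to-light course, set2Δ cells with LANS-Set2 were kept in the dark and sampled at 0, 20, 40 and 60 min of blue light. In the light-to-dark course the same genotype was kept in blue light and sampled at 0, 30, 60 and 90 min of darkness. A second light-to-dark course, for H3K36me3 alone, used the set2Δ rph1Δ genotype. Wild-type and rph1Δ cells without the switch grew in YPD and were sampled once for RNA. Each group had 3 libraries except the RNA at 60 min of light, with 2. The labels do not say whether replicates were separate cultures, so p-values measure the spread between these samples, which may be technical.

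RPH1 was at 15.6, 15.9 and 17.4 TPM (the abundance of a transcript relative to all others, corrected for length) in wild type and at 0 to 0.0248 TPM in rph1Δ. SET2 was at 16.5 to 17.5 TPM in YPD and at 78.8 to 172 TPM over the courses, whose cells lacked the native gene and carried LANS-Set2. Libraries held 9295949 to 14334963 reads in YPD, 16022537 to 29032861 in the dark-to-light course and 10551857 to 27652694 in the light-to-dark course. The factor genes took 1.45 to 1.53% of reads in YPD, 0.807 to 0.971% in the dark-to-light course and 0.778 to 1.00% in the light-to-dark course. Strain, medium and table all differ between YPD and the courses, so no change between them was tested and none can be assigned to any of these. In the light-to-dark course replicate 1 stood apart: at each of the 4 times its read counts differed from those of the other 2 replicates by a chi-square of 28.6 to 72.8 per degree of freedom, where the other 2 differed from each other by 13.5 to 15.2. At 0 min NOP16 was at 7.86 TPM in it and at 32.5 and 40.4 TPM in the other 2, and NOP1 at 88.8 against 180 and 257 TPM.

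The promoters carried the regulon's sequence signature. CGATGAG, the core of the PAC element, was present on either strand in 37 of the 61 promoters (60.7%) and in 420 of 5985 promoters of protein-coding genes (7.02%). AAAATTT, the core of the RRPE element, was present in 55 (90.2%) against 23.2% of all promoters, and both were present in 33 (54.1%) against 4.08%. The window ran from 250 bases before to 50 bases after the start codon. By their letters the 2 motifs cannot overlap each other, while AAAATTT and its reverse complement AAATTTT can, and a promoter was counted once however many matches it held. The first base of a match lay at a median of 120 bases before the start codon for PAC and 132 for RRPE. By role, UTP-A and UTP-B genes held both motifs in 5 of 6 and 4 of 4 promoters, small subunit genes in 11 of 16 and large subunit genes in 10 of 18, while 1 of 5 snoRNP core, 0 of 7 exosome and 0 of 2 UTP-C genes held both. Whether the roles differ in this was not tested. NOP9 and RRP9 held neither. A match is a description of letters and not a bound site.

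The stretches below come from the RefSeq R64 genome (sacCer3), on the coding strand and 5′ to 3′, for the 4 genes whose RNA fell at 40 min of light and for UTP9, a UTP-A gene with the 2 motifs within 9 bases of each other. Capitals mark every base that belongs to a PAC or RRPE match on either strand.

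NSR1 (chrVII:807810-807855, minus strand): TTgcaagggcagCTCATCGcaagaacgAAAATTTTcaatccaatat

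ENP1 (chrII:714558-714602, minus strand): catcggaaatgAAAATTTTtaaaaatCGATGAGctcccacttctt

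NOC2 (chrXV:727351-727403, plus strand): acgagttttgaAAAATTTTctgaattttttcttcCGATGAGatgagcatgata

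UTP9 (chrVIII:491800-491839, plus strand): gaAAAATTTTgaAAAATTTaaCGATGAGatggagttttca

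UTP23 (chrXV:333470-333500, plus strand): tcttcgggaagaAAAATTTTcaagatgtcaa

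NSR1, ENP1, NOC2 and UTP9 each hold a PAC and an RRPE match side by side, with PAC on the opposite strand in NSR1, and UTP23 holds RRPE without PAC. The leading TT in NSR1 ends another RRPE match.

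RNA levels, per length as TPM averaged over all 29 libraries of both media, ran over a wide range. NOP10, NOP56 and NOP1, all snoRNP core proteins, were highest at 2626, 219.5 and 198 TPM. NOP10 is 177 bases long and its effective length in the deposited files is 7.77 bases, so its TPM rests on few countable positions. The order was not the same in all groups: in wild type in YPD NSR1, at 302 TPM, came after NOP10 and above NOP1 at 284 and NOP56 at 266 TPM. Strain, medium and table differ together there. NOP8 and RRP14, large subunit factors, and RRP36, a small subunit factor, were lowest at 11.0, 13.3 and 13.2 TPM. By role the median was 198 TPM for the 5 snoRNP core genes, 92.8 for the 3 genes acting on both subunits, 57.2 for UTP-C, 38.0 for UTP-A, 37.5 for the exosome, 34.3 for the large subunit, 29.5 for UTP-B and 28.4 for the small subunit. Among replicates of one group most factor genes were steady: the median SD of log2(TPM + 1) was 0.08 in the dark-to-light course, against 0.11 over all genes. NOP16, NOP1 and RRP14 were the most variable there, with SDs of 0.29, 0.28 and 0.24.

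Turning on the light was followed by a small drop in factor gene RNA: the median over the genes was lower in each library at 20 and 40 min than in any dark library, and at 60 min it was closer to 0. No course without a switch was analysed here, so light and time in culture after the first sample cannot be told apart. At 40 min 4 of 61 genes fell past the threshold and 0 rose (limma on log2(TPM + 1), adjusted p under 0.05 over 5907 genes), while 0.254% of all genes fell and 3.54% rose. The 4 that fell were 4 of only 15 falling genes in the whole table. The median change over the 61 genes was −0.15 (log2), beside 0.10 over all genes, and 58 of 61 were lower than at 0 min.

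NSR1, a nucleolin-like protein of precursor RNA processing, was at 155, 154 and 143 TPM at 0 min, at 128, 116 and 112 at 20 min, at 105, 126 and 109 at 40 min and at 109 and 132 at 60 min. All 6 libraries at 20 and 40 min lay below the 3 in the dark. The change at 40 min was −0.41 ± 0.10 (log2, SE, adjusted p = 0.0491 by limma).

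UTP23, a small subunit processome protein, was at 23.1, 28.0 and 25 TPM at 0 min, at 21.4, 20.0 and 22 at 20 min, at 18.5, 20.2 and 20.1 at 40 min and at 23.7 and 25.5 at 60 min. Its 20 and 40 min values did not overlap those at 0 min, and both 60 min values lay within the range in the dark. The change at 40 min was −0.35 ± 0.07 (adjusted p = 0.0365 by limma).

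NOC2, which carries large subunit precursors through assembly, was at 64.8, 68.1 and 63.0 TPM at 0 min, at 55.4, 55.8 and 54.7 at 20 min, at 54.8, 55.7 and 55.1 at 40 min and at 61.6 and 63.6 at 60 min. The 6 libraries at 20 and 40 min lay between 54.7 and 55.8 TPM, all below the dark libraries. The change at 40 min was −0.24 ± 0.05 (adjusted p = 0.0368 by limma).

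ENP1, needed for small subunit maturation, was at 35.2, 35.2 and 33.4 TPM at 0 min, at 30.0, 28.5 and 29.3 at 20 min, at 29.3, 29.4 and 29.2 at 40 min and at 33.4 and 35 at 60 min. The groups at 20 and 40 min lay below the dark libraries without overlap, and the 60 min group did not. The change at 40 min was −0.23 ± 0.05 (adjusted p = 0.0314 by limma).

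**Figure D1:**
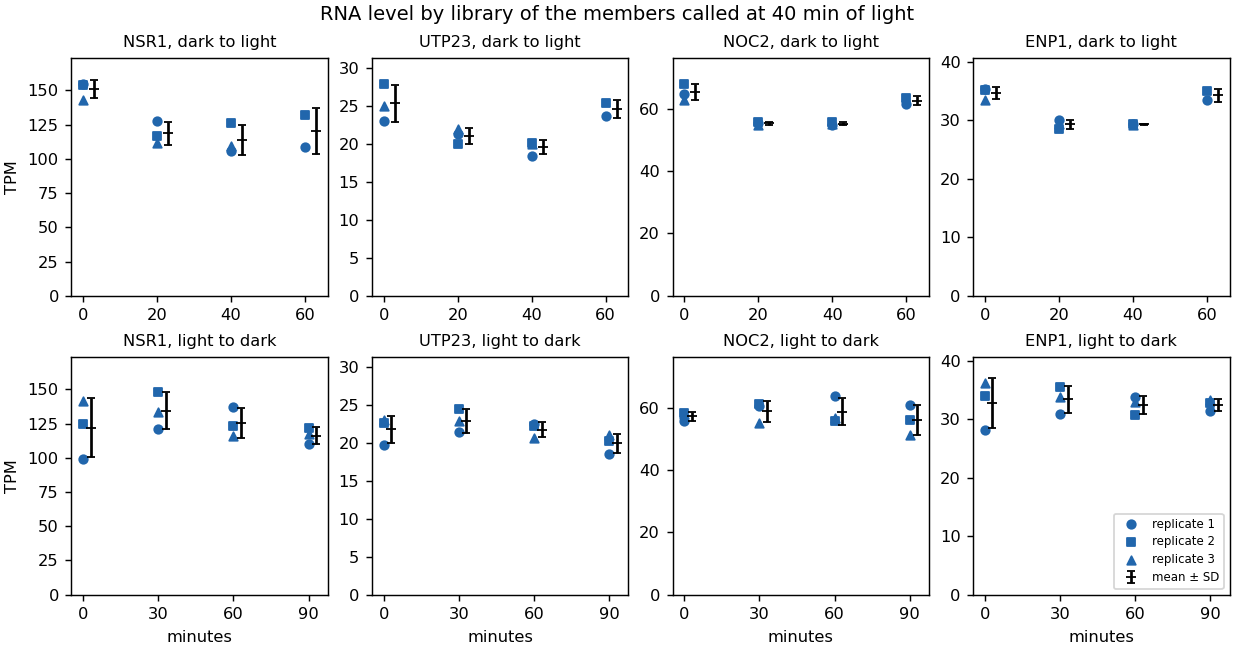
TPM of NSR1, UTP23, NOC2 and ENP1 in each library against minutes after the switch, with the dark-to-light course above and the light-to-dark course below; points are libraries, and bars are the mean ± SD of 3 libraries (2 at 60 min of light). All 4 genes are lower in each 20 and 40 min light library than in each dark library, and UTP23, NOC2 and ENP1 are back near the dark level at 60 min.

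How many genes passed depended on the scaling and the test together, and on single libraries. The TPM values could be turned back into whole reads, and edgeR's quasi-likelihood test on those reads found that 34 of 61 genes fell and 0 rose at 40 min, while 4.77% of all genes fell and 3.44% rose. That test also rescales the libraries (TMM), which moved the median of all genes from 0.10 to 0.01 (log2). With each library centred on its median gene, limma found that 27 of 61 fell and 0 rose, beside 3.28% of all genes that fell and 2.15% that rose, and edgeR without TMM found that 10 fell and 0 rose, beside 1.86% and 6.01%. With limma on uncentred TPM, 0 genes passed without 0 min replicate 1 or 2 or without 40 min replicate 1 or 3, 1 passed without 40 min replicate 2, and 13 passed without 0 min replicate 3. Over all genes, in either direction, these limma fits called 1, 2 and 569 without 0 min replicates 1, 2 and 3. Without 40 min replicates 1, 2 and 3 they called 7, 154 and 1, of 5903 to 5913 genes tested. With edgeR the count was 7, 0 and 42 without 0 min replicates 1, 2 and 3, and 8, 22 and 0 without 40 min replicates 1, 2 and 3. Of 5861 to 5865 genes tested, these edgeR fits called 109, 12 and 679, and 123, 365 and 12, in the same order. The median change stayed between −0.17 and −0.13 (log2) in the limma fits on uncentred TPM and was −0.24 on centred libraries. As a description without a test, the TPM of 32 of 61 genes at 40 min lay wholly below those at 0 min and 0 lay wholly above, while 6.77% of all genes lay wholly below and 28.9% wholly above.

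The count by role, from edgeR on whole reads, was 6 of 6 for UTP-A, 3 of 3 for genes acting on both subunits, 11 of 18 for the large subunit, 3 of 5 for the snoRNP core, 8 of 16 for the small subunit, 2 of 4 for UTP-B, 1 of 7 for the exosome and 0 of 2 for UTP-C. The median change on this scale was −0.29 for UTP-A, which forms the first seed of the processome, and −0.16 for the exosome. In this edgeR fit 4.77% of all genes fell. Without 0 min replicate 2 or without 40 min replicate 3 it called 0 of the 61, so the counts by role rest on single libraries. Whether roles differ was not tested. Among genes named for their roles, NOP7, a large subunit factor, fell by 0.35 ± 0.07 (adjusted p = 0.0193 by edgeR), and NOP56, a snoRNP core protein, fell by 0.32 ± 0.07 (adjusted p = 0.0207 by edgeR). NSA2 (large subunit), RRP5 (both subunits) and UTP4 (UTP-A) fell by 0.30, 0.28 and 0.27, with adjusted p of 0.0212, 0.017 and 0.0163 by edgeR. None of these 5 passed with limma on uncentred TPM, where adjusted p ran from 0.0921 to 0.127, and all 5 passed with limma on centred libraries. NOP1, the fibrillarin methyltransferase, did not pass either test, at 159, 190 and 223 TPM at 0 min and 144, 189 and 173 TPM at 40 min. RRP6, the nuclear exonuclease of the exosome, was at 34.3, 31.5 and 29.5 TPM and then 31.7, 29.6 and 29.4 TPM, and did not pass.

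**Figure D2:**
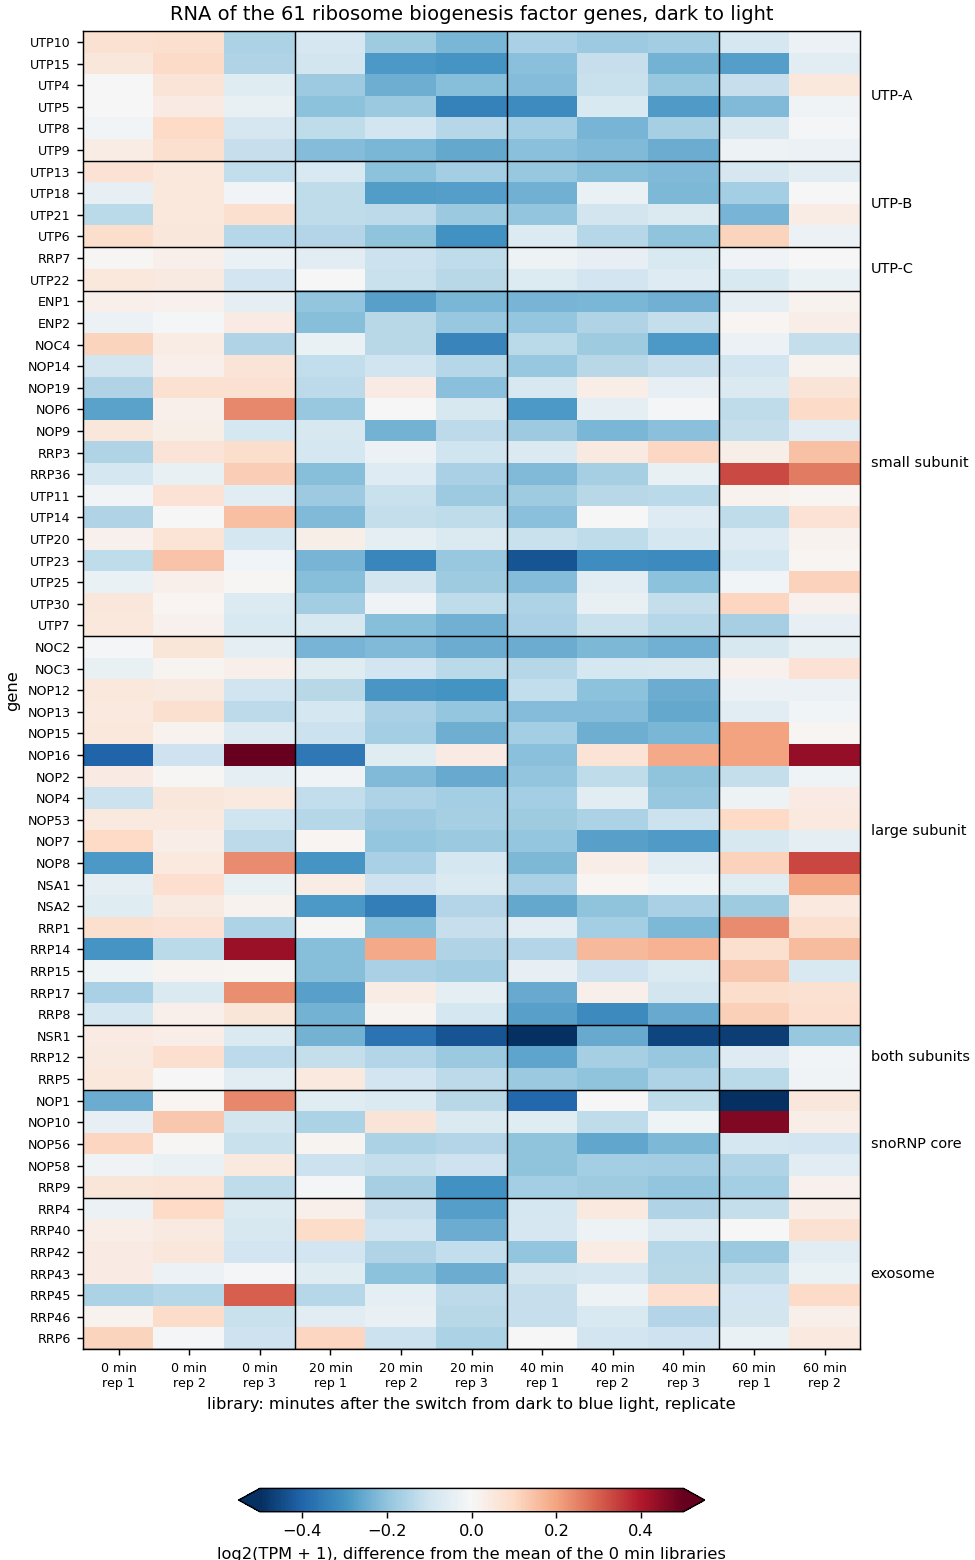
Difference of log2(TPM + 1) from the mean of the 0 min libraries for the 61 genes (rows, by role) in the 11 dark-to-light libraries (columns); blue is lower and red higher, and colours saturate at 0.5. Most rows are blue in all 20 and 40 min columns and pale at 60 min, while NOP16, RRP14, NOP8 and NOP1 vary among the 0 min libraries themselves.

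The promoter motifs and the change at 40 min can be set side by side. Of the 33 genes with both motifs, 24 fell by edgeR on whole reads, with a median change of −0.27. In that fit 4.77% of all genes fell. Of the 22 with RRPE alone, 7 fell, with a median of −0.20, and of the 4 with PAC alone, 1 fell. NOP9 and RRP9, with neither, both fell. These counts cover the factor genes alone, and other genes with the motifs were not counted. Without 0 min replicate 2 or 40 min replicate 3 the edgeR fit called 0 of the 61. Whether these groups differ was not tested, and exosome genes make up part of the RRPE-alone group.

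At 20 min 61 of 61 genes were lower than at 0 min, beside 34.8% of all genes, yet none passed limma, where 1 gene of 5907 passed (0.0169%). The same count by edgeR on whole reads was 0. In the limma fit 27 of the 61 had an unadjusted p under 0.05. No share over all genes is given for that count, so it is a description. The median change was −0.15 (log2), beside 0.04 over all genes. ENP1, NOC2 and UTP9, the last a UTP-A subunit, had the smallest p. Their changes were −0.23 ± 0.05, −0.23 ± 0.05 and −0.24 ± 0.06, each with adjusted p of 0.39 to 0.401 by limma. NSR1 was at −0.35 ± 0.10 (adjusted p = 0.402 by limma). The TPM of 25 genes lay wholly below those at 0 min, beside 3.74% of all genes, and 0 lay wholly above, beside 10.6%.

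At 60 min none of the 61 genes passed with limma, where 0.0508% of all genes passed, and the 2 genes with an unadjusted p under 0.05 were NSR1 and RRP36. That unadjusted count is given without a share over all genes, as a description. By edgeR on whole reads 1 gene fell, beside 1.7% of all genes: NSR1, at −0.40 (adjusted p = 0.0395). The median change was −0.03 (log2), beside 0.08 over all genes. NSR1 was at −0.33 ± 0.11 (adjusted p = 0.145 by limma). RRP36, a small subunit factor, was at 11.6, 12 and 13.5 TPM at 0 min and at 15.8 and 15.0 TPM at 60 min, a difference of 0.30 ± 0.08 (adjusted p = 0.12 by limma). From 40 to 60 min 59 of 61 genes were higher, with a median difference of 0.13 beside −0.03 over all genes, but 0 of 61 and 0% of all genes passed limma. RRP36, RRP8 (a methyltransferase of large subunit RNA) and NOP15 (large subunit) had the smallest p in that step, with differences of 0.44 ± 0.08, 0.38 ± 0.08 and 0.32 ± 0.08 and adjusted p of 0.95, 0.95 and 0.96 by limma.

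**Figure D3:**
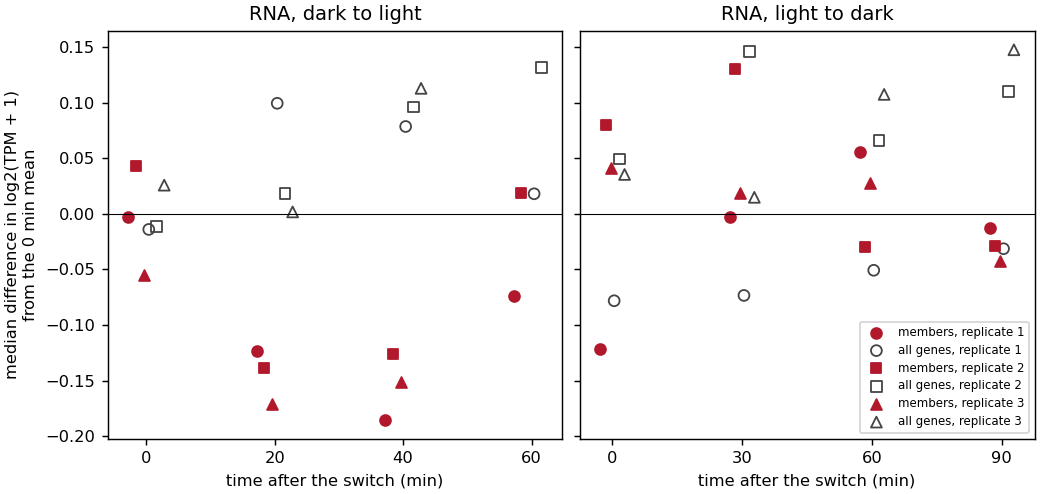
Median difference of log2(TPM + 1) from the mean of the 0 min libraries, per library, for the 61 genes (filled red) and for all genes with a mean of at least 1 TPM (open grey), against minutes after the switch. The 6 member medians at 20 and 40 min of light lie between −0.19 and −0.12, below the 3 at 0 min, while the all-gene medians lie between 0.00 and 0.11; after the light was turned off, member medians lie on both sides of 0.

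Genes of the same pathway outside the naming rule were counted in the same fits. Of 123 other assembly factors, 4 fell and 0 rose with limma at 40 min, 53 fell and 0 rose with edgeR on whole reads, and the limma median was −0.13 (log2). Over all genes 0.254% fell and 3.54% rose with limma, and 4.77% fell and 3.44% rose with edgeR. These calls depended on single libraries. Without 0 min replicate 2 or without 40 min replicate 3, edgeR called 12 of all 5865 genes. Limma then called 2 of 5911 and 1 of 5903 genes. RLP7, DBP3, NIP7 and BRX1, all large subunit factors, were the 4 that fell, at −0.23 ± 0.05, −0.25 ± 0.06, −0.30 ± 0.07 and −0.25 ± 0.06 (adjusted p of 0.0426 to 0.0493 by limma). Of 15 RNA polymerase I genes, 0 passed limma and 4 fell by edgeR, with a limma median of −0.03. RPA43 had the smallest p among them, at −0.23 ± 0.06 (adjusted p = 0.0544 by limma). Of 12 regulators of the regulon, 0 passed either test, with a limma median of 0.06.

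The authors' deposited tables of changed genes listed 14 of the 61 genes at 20 min, 38 at 40 min and 2 (NSR1 and NOP58) at 60 min of light, among 88, 687 and 445 genes listed (1.32, 10.3 and 6.65% of all genes). All these members carried a positive log2 fold change in the authors' deposited tables, 0.43 for NSR1 at 40 min for example, whereas their TPM values were lower in the light. The opposite sign held for each gene that could be compared, 685 of 685 at 40 min. How the fold change was directed is not given in the sources used here.

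After the light was turned off, no single factor gene passed the threshold in RNA in the fits without a replicate block. At 30, 60 and 90 min of darkness 0 of 61 genes passed limma, while 0, 0.306 and 1.95% of all genes passed. The numbers of the 61 with an unadjusted p under 0.05 were 0, 0 and 2, and edgeR on whole reads also gave 0 at each time. The unadjusted counts are given without a share over all genes, as a description. With replicate number as a block 1 gene, RRP42, fell at 90 min, where 782 of all 5884 genes passed in either direction. The replicate numbers did not meet the rule for pairing given in the closing section. The median changes were 0.05, 0.02 and −0.02 (log2), beside 0.02, 0.04 and 0.07 over all genes. NSR1 was at 99.4, 125 and 142 TPM at 0 min, at 121, 148 and 134 at 30 min, at 137, 123 and 116 at 60 min and at 110, 122 and 117 at 90 min. Those groups all overlapped. NOP13, an RNA-binding nucleolar protein, and RRP42, an exosome ring subunit, had the smallest p at 90 min, at −0.24 ± 0.09 and −0.22 ± 0.10 (adjusted p of 0.241 and 0.359 by limma), followed by UTP10 (UTP-A) at −0.17 ± 0.08 (adjusted p = 0.423 by limma). NOP2, a large subunit methyltransferase, and the small subunit factor NOP19 were at 0.13 ± 0.07 and 0.14 ± 0.09 at 30 min, both with adjusted p = 1. The 0 min library of replicate 1, which stood apart, set some of these values: NSA2 at 60 min was at 0.17 ± 0.14 with it and at −0.028 without it. With all 4 libraries of replicate 1 left out, the count of genes past the threshold was again 0 at each time. Of all 5875 genes tested, 2, 100 and 415 then passed. The median changes of the 61 were then 0.02, −0.07 and −0.10 (log2), beside 0.02, 0.02 and 0.07 over all genes. The authors' deposited tables for this course listed 0 of the 61 genes among 14, 117 and 313.

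The last points of the 2 courses were also compared as a difference of changes, 90 min of darkness minus 60 min of light, each against its own 0 min. For the 61 genes 0 passed limma, where 0.441% of all genes passed, and 0 had an unadjusted p under 0.05. NOP13, NOC3 (large subunit) and NSR1 had the smallest p, at −0.20 ± 0.11, −0.15 ± 0.09 and 0.27 ± 0.17 (adjusted p of 0.646, 0.692 and 0.732 by limma).

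In rph1Δ cells, which lack the demethylase, the RNA of most factor genes differed little from wild type. Of the 61 genes 1 fell and 0 rose (edgeR's quasi-likelihood test on estimated counts, adjusted p under 0.05), while 2.83% of all genes fell and 9.46% rose. The changes ran from −0.14 to 0.09 (log2) with a median of −0.02, beside −0.01 over all genes. RRP3, a helicase for small subunit RNA, was at 41.9, 41.7 and 41.0 TPM in wild type and at 37.8, 37.9 and 37.8 TPM in rph1Δ. Its change was −0.14 ± 0.04 (adjusted p = 0.0321 by edgeR), and DESeq2 did not call it (adjusted p = 0.0859). The count was also 0 without wild-type replicate 2 or 3 or rph1Δ replicate 1 or 2, and 2 without wild-type replicate 1. Over all genes these fits called 526 to 698, where the full fit called 748. RRP5 at 0.09 ± 0.03 and UTP23 at −0.12 ± 0.06 had the next smallest p and did not pass (adjusted p of 0.101 and 0.191 by edgeR). NSR1 was at 323, 291 and 290 TPM in wild type and at 335, 327 and 307 TPM in rph1Δ, overlapping groups.

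Most factor genes carried more H3K36me3 than the median gene before either switch. The deposited signal is 1 value per gene and library with no stated unit. In the dark the median over the 52 genes was 0.0532 ± 0.0068 (SD over 3 libraries), beside 0.0224 ± 0.0017 over all genes. In continuous light it was 0.271 ± 0.025 beside 0.105 ± 0.013, and in the set2Δ rph1Δ strain 0.394 ± 0.060 beside 0.196 ± 0.042. How libraries were scaled is not stated, so levels were compared only within a table. The median gene of the 52 stood at the 86.0th, 88.3rd and 89.0th percentile of all genes in these 3 states.

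NOP1 and NOC2 were among the 3 highest in each course and RRP40 among the 3 lowest. NOP1 was at 0.551, 0.616 and 0.539 in continuous light, and NOC2 at 0.401, 0.465 and 0.388. RRP40, an exosome cap subunit of 723 bases, was at 0.0371, 0.0406 and 0.0421, and NOP10 at 0.0325, 0.0393 and 0.0405. Long genes carried more: over the 52 genes the Spearman correlation of the 0 min mark with gene length was 0.59 in the dark, 0.59 in the light and 0.48 in the set2Δ rph1Δ strain, beside 0.39, 0.49 and 0.47 over all genes. These are descriptions over genes that share libraries. By role, the median in the light was 0.156 for the exosome genes, with a median length of 918 bases, and 0.320 for UTP-A, with 2037 bases.

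**Figure D4:**
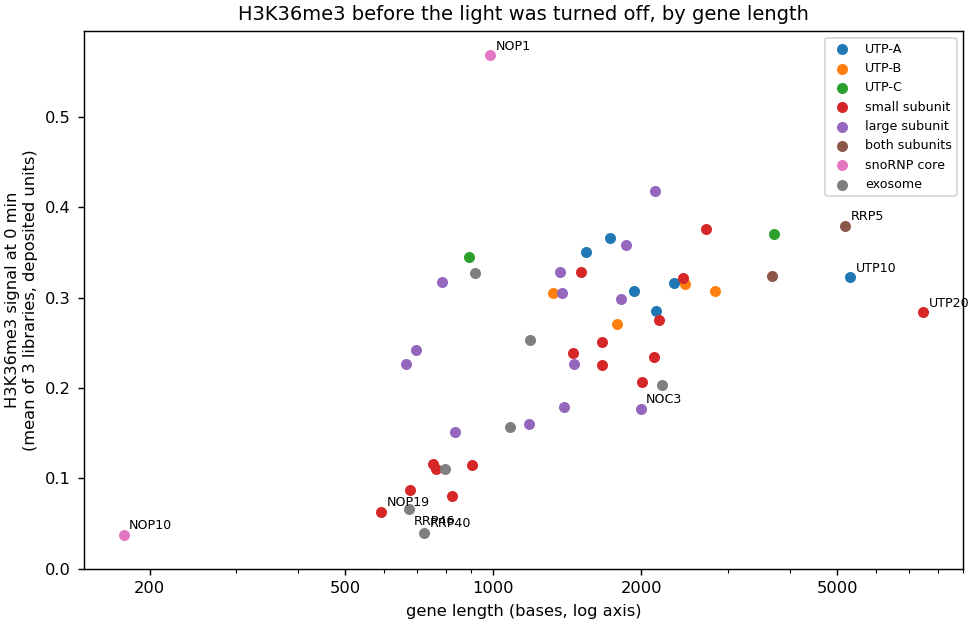
H3K36me3 signal at 0 min of the light-to-dark course (mean of 3 libraries, deposited units) against gene length in bases on a log axis, for 52 genes coloured by role. NOP10, RRP40, NOP19 and RRP46, all short, are low, most longer genes lie above 0.15, and NOP1, 984 bases long, is the highest.

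The mark rose in the light on all 52 genes. Each passed over the course (limma slope on the log2 scale, adjusted p at most 9.91e-09), as did 99.9% of all genes, so the count is no feature of these genes. The medians rose from 0.0532 ± 0.0068 at 0 min to 0.0895 ± 0.0154 at 20 min, 0.139 ± 0.036 at 40 min and 0.174 ± 0.037 at 60 min. The median gene reached 28.8 ± 5.9% of its 60 min gain at 20 min and 70.2 ± 7.5% at 40 min, beside 27.2 ± 4.9% and 67.5 ± 5.3% over all genes. In the fit of 60 against 0 min 52 of 52 genes rose, as did 99.9% of all genes. By 60 min the ratio to 0 min was 3.19 ± 0.39, beside 4.05 ± 0.57 over all genes. The median slope was 1.57 per hour on the log2 scale, beside 1.87, with a pseudocount of 0.1 times the table median, and both were 1.09 with a pseudocount at the table median. RRP42, NOP15, RRP43 and RRP6 were steepest, at 1.98 ± 0.18, 1.94 ± 0.20, 1.88 ± 0.21 and 1.85 ± 0.19. RRP40, NOP19, NOP10 and NOP1 were shallowest, at 1.22 ± 0.15, 1.26 ± 0.14, 1.27 ± 0.16 and 1.33 ± 0.20. RRP40, NOP19 and NOP10 had low means in the dark, of 0.0148, 0.0148 and 0.0183. A pseudocount flattens the log2 slope of low signals most, so their rank may depend on it.

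RRP42 was at 0.0187, 0.0253 and 0.0214 in the dark and at 0.0770, 0.0978 and 0.123 after 60 min. NOP1 was at 0.137, 0.159 and 0.183 and then at 0.340, 0.384 and 0.489. NOC2, whose RNA fell at 40 min, was at 0.0907, 0.100 and 0.108 in the dark, at 0.177, 0.226 and 0.280 at 40 min and at 0.218, 0.265 and 0.341 at 60 min. In each of these genes all 60 min libraries lay above all dark libraries.

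The mark fell in the dark on all 52 genes, as on 99.6% of all genes (limma slope, adjusted p at most 0.000179 for the 52). The median gene kept 68.3 ± 5.7% of its 0 min value at 30 min, 51.6 ± 4.5% at 60 min and 42.3 ± 1.1% at 90 min, beside 69.0 ± 4.4, 51.6 ± 4.8 and 43.6 ± 2.3% over all genes. In the fit of 90 against 0 min 52 of 52 fell, as did 99.5% of all genes. The median slope was −0.78 per hour on the log2 scale, beside −0.75. NOP15, UTP11, NOP16 and NOP6 fell fastest, at −1.02 ± 0.09, −0.99 ± 0.08, −0.95 ± 0.08 and −0.93 ± 0.09. NOP10, RRP40, NOP1 and RRP46 fell slowest, at −0.40 ± 0.09, −0.52 ± 0.09, −0.66 ± 0.08 and −0.69 ± 0.10. Low signals limit the ranks of NOP10, RRP40 and RRP46 here too, with 0 min means of 0.0374, 0.0399 and 0.0666. NOP15, a large subunit RNA-binding protein, went from 0.191, 0.258 and 0.231 to 0.0667, 0.0865 and 0.0740, and NOP1 from 0.551, 0.616 and 0.539 to 0.253, 0.314 and 0.284. Both pairs of groups did not overlap.

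**Figure D5:**
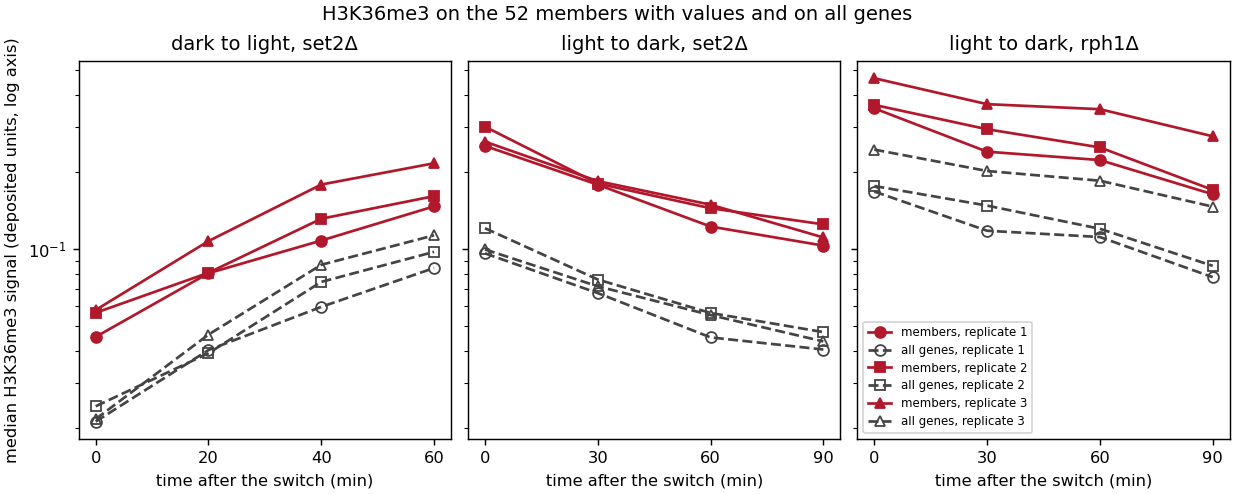
Median H3K36me3 signal (deposited units, log axis) over the 52 genes (red) and over all genes (grey, dashed) in each library against minutes after the switch, with lines joining libraries of the same replicate number. The factor gene median lies above the all-gene median in every library of the 3 courses. Both medians rise in the light and fall in the dark, and the gap narrows in the light, from a mean ratio of 2.37 at 0 min to 1.77 at 60 min.

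Without Rph1 the mark also fell in the dark, on 51 of 51 genes tested and on 97.4% of all genes (limma slope, adjusted p at most 0.0128 for the 51). NOP10 was under the filter on low values. Without replicate 2 none of the 51 and 3 of all 4815 genes passed, although the median slope was then −0.54 per hour. Without replicate 1, 50 of the 51 and 4187 of all 4815 passed. The median gene kept 51.7 ± 7.6% of its 0 min value at 90 min, beside 52.4 ± 7.1% over all genes. In the fit of 90 against 0 min 51 of 51 fell, as did 95.5% of all genes. There 0 of 51 passed without replicate 1 or without replicate 2, beside 12 and 0 of all 4815 genes. The median slope was −0.57 per hour, beside −0.55. NOP15, RRP42, UTP9 and UTP20 were steepest, at −0.68 ± 0.16, −0.66 ± 0.18, −0.66 ± 0.16 and −0.61 ± 0.16, and RRP40, RRP46, UTP6 and UTP30 were shallowest, at −0.46 ± 0.18, −0.47 ± 0.18, −0.51 ± 0.16 and −0.51 ± 0.18. The 0 min means of RRP40 and RRP46 were again low, at 0.0984 and 0.114. NOP15 went from 0.364, 0.379 and 0.479 to 0.164, 0.153 and 0.260.

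The slope was less steep without Rph1 for 51 of 51 genes, by a median of 0.21 per hour on the log2 scale, beside 0.20 over all genes. None of these differences passed (limma, smallest adjusted p = 0.547 among the 51, 0% of all genes past the threshold), and 2 of the 51 had an unadjusted p under 0.05. No share over all genes is given for the unadjusted count. With replicate number as a block 28 of the 51 passed, as did 43.6% of all genes. The replicate numbers did not meet the rule for pairing given in the closing section. The 2 courses come from separately deposited tables whose scaling is not stated, so this difference is between slopes fitted in each and not between levels.

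The authors' deposited model tables gave an estimate of change with bounds for each gene and course. In the authors' deposited tables the bounds excluded 0 for 52 of 52 genes in the dark-to-light course, where they did for 96.2% of all genes, and for 46 of 52 in each light-to-dark course, where they did for 79.1%.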

How the data were processed

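The 29 RNA and 36 H3K36me3 libraries used here are part of 134 samples in 55 groups; groups follow the labels. The submitters' processing notes name, with no role for each, Salmon 0.8.1 and DESeq2 1.14.1 in R 3.3.1, STAR (2.5.2b, 2.5.4b), deepTools 2.5.4, cutadapt 1.12 and the build sacCer3. Deposited Salmon files hold an estimated count, TPM and length for every gene of wild type and rph1Δ. Only TPM is in the deposited tables of the courses. The mark is deposited as a signal, with a single value for a gene in each library, and its scaling is not given in the sources used here. The authors' tables of changed genes give log2 fold changes and p-values, and the authors' model tables give estimates with bounds, another kind of score.

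All fits ran over all genes, in R 4.3.3, with Benjamini-Hochberg adjustment and a threshold of 0.05. Estimated counts, rounded, were tested with edgeR 4.0.16 (quasi-likelihood, TMM). TPM was tested with limma 3.58.1 on log2(TPM + 1), genes with a mean of at least 1 TPM, time as a factor. Dividing TPM times effective length (from a wild-type file) by its value at 1 read gave back reads, and 100% of values under 1000 reads came out whole within 0.05. The mark was tested with limma on log2(signal + 0.1 times the table median), leaving out genes under the 10th percentile. Estimates are followed by SE, levels by SD. DESeq2 1.42.0 and other settings are in the closing section. The scripts were tested on simulated data. A chi-square check between replicates of the same RNA group found no duplicated library. It did not compare libraries of different groups or the H3K36me3 libraries.

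The genes, lists and tests were chosen with earlier results of these data known. Named genes are NSR1, NOP1, NOP56, UTP4, RRP5, ENP1, NOC2, NSA2, NOP7 and RRP6; in each RNA comparison the up to 6 largest rises and falls past the threshold or, where under 3 passed, the 3 with the smallest p; the 3 highest and lowest levels; and for the mark the 4 steepest and shallowest and the 3 highest and lowest genes. Other genes given as examples were chosen after their values were seen. No factor gene overlaps another gene of the RefSeq R64 annotation used here. That annotation held 6008 of the 6692 genes in the RNA tables, so overlaps with the remaining genes were not checked. Depth covers counting error only.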

Additional observations from a re-analysis of the deposited data

How the results depend on the processing

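The replicate numbers did not meet the rule for pairing (every pair's correlation of deviations over 0.1): the lowest was −0.07 in the dark-to-light RNA, 0.03 in the light-to-dark RNA, −0.06 in wild type and rph1Δ, and −0.02, −0.26 and −0.18 in the 3 H3K36me3 courses. Same-numbered samples still leaned together in the courses, with medians of 0.16, 0.29, 0.18, 0.14 and 0.18 beside −0.08, −0.16, −0.11, −0.05 and −0.09 for other numbers, and 8 of 11, 10 of 12, 12 of 12, 8 of 12 and 10 of 12 samples correlated best with their own number (dark-to-light RNA, light-to-dark RNA, then the 3 mark courses). With the replicate block 14 genes fell at 40 min of light, where 4 fell without it and 34 by edgeR on recovered reads, 10 by that test without TMM and 27 by limma with each library centred on its median gene, and 0 passed when only the 0 and 40 min libraries were fitted. At 60 min of light 1 gene rose with the block (RRP36) and 1 fell by edgeR on recovered reads (NSR1), at 90 min of darkness 1 fell with the block (RRP42), and for the slope difference between courses 28 of 51 passed with the block, as did 43.6% of all genes. Over all genes, in either direction, the block fits called 748 of 5907 at 40 min of light, where 224 were called without it. They called 328 of 5907 at 60 min of light and 782 of 5884 at 90 min of darkness. In rph1Δ against wild type DESeq2 called 0 of the 61 genes, beside 528 of all 6513. The block changed no other count of factor genes. Leaving out 1 replicate at a time, the count ran from 0 to 2 in rph1Δ, from 0 to 13 at 40 min of light, at 0, 0, 7, 8, 22 and 42 there by edgeR on recovered reads, from 0 to 1 for the difference of RNA changes and from 0 to 51 for both measures of the mark in set2Δ rph1Δ; it was 0 throughout at 20 and 60 min of light, from 40 to 60 min, at all times of darkness and for the slope difference, and 52 in the other 2 mark courses. The direction turned for NOP1 at 20 min of light without 0 min replicate 3 (0.029, range −0.22 to 0.029), for RRP6 at 20 min without 0 min replicate 1 (0.0034) or 20 min replicate 3 (0.00095, range −0.13 to 0.0034), and for NSA2 at 60 min of darkness without 0 min replicate 1 (−0.028, range −0.028 to 0.27) or without replicate 1 at all times (−0.057). The cause of these differences was not tested. Centring, edgeR without TMM, leave-one-out by edgeR, the 60 against 40 min step and the course without replicate 1 were chosen after seeing the data. With 200 bases before the start alone, 55.7% of the promoters held PAC and 86.9% RRPE. With 2 libraries at 60 min of light, changes of the size seen at 40 min are hard to detect there.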

Other observations

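NOP16, NOP1, NOP8 and RRP14 were among the most variable factor genes within groups in both RNA courses. In the light-to-dark course their SDs of log2(TPM + 1) among replicates were 0.74, 0.56, 0.45 and 0.42, beside a median of 0.15 over all genes, and RRP17 was at 0.57. Each of the 4 was lower in replicate 1 than in the other 2 replicates at all 4 times: NOP8, for example, was at 5.16, 5.31, 8.03 and 8.45 TPM in replicate 1 at 0, 30, 60 and 90 min, and at 9.19 to 13.1 TPM in the other libraries.

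In the authors' deposited tables of changed genes, the log2 fold change had the opposite sign to the change in the deposited TPM for 1654 of 1654 genes compared over the 6 tables, the factor genes included.

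The mark and the RNA level of the factor genes were related only loosely: the Spearman correlation over 52 genes of the 0 min mark with mean TPM was 0.34 in the dark and 0.28 in the light, over genes that share libraries. NOP1 was high in both and NOP10 was high in TPM and low in the mark.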
